A study of Sus scrofa with 67 samples.

Results

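The porcine ovary was compared between day 18 and day 9 of the oestrous cycle, that is, between the follicular phase and the mid-luteal phase. The members were every gene of the count table in 6 ovary libraries, 3 of day 18 and 3 of day 9, out of 66 libraries of endometrium, ovary and oviduct. All gilts were untreated, cycling Landrace × Yorkshire crossbreds that had already passed through normal cycles, and day 0 was the day on which oestrous behaviour began. Each ovary library was made from the polyadenylated RNA of a whole ovary of one side, so the sample mixed follicles, corpora lutea, stroma, vessels and blood cells. Fewer cells of a type and less RNA per cell cannot be told apart in such samples. The study used separate gilts for each day. The edgeR p-values rest on a spread estimated over all 22 ovary libraries of the 7 days, not on the 6 compared alone. Days 12 and 15 hold 4 ovary libraries each, more than the gilts described per day, so libraries of these days may share a gilt. Their SDs and p-values, and all p-values that use the shared spread, may then be too small.

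The corpus luteum forms from the ruptured follicle after ovulation and secretes progesterone, which is made from cholesterol that the luteal cells take up from lipoproteins or synthesise themselves. At mid-cycle the corpora lutea are at full function. If no pregnancy is established, prostaglandin from the uterus triggers luteolysis, in which luteal cells lose their steroid output and die, macrophages clear the remains, and new follicles grow under gonadotropins. Day 9 falls in the period of luteal function, and day 18 after its end, shortly before the next oestrus.

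The ovary of day 18 had lower levels of cholesterol synthesis genes, among them IDI1 and NSDHL, and of FMO1, OCRL and SNTB1, and higher levels of CTSL, PDK4, SPP1 and TNC. Of 15638 genes tested, 672 changed (edgeR quasi-likelihood test, Benjamini-Hochberg adjusted p under 0.05), which is 4.3% of the genes tested. These were 207 genes higher on day 18 (1.32%) and 465 lower (2.97%). The libraries of the days did not overlap for 5162 genes, 33.0% of those tested. An unadjusted p under 0.05 (edgeR) was reached by 4234 genes (27.1%), 2233 higher (14.3%) and 2001 lower (12.8%). DESeq2, an alternative test, called 1131 of the 15638 genes higher and 1190 lower. Counts of list members below are to be read against these numbers. The median log2 fold change, day 18 minus day 9, was 1.5 among the higher genes and -1.66 among the lower genes, against 0.12 over all genes tested. Among the 207 higher genes, 161 changed by at least 1 on the log2 scale and 38 by at least 3. Among the 465 lower genes, these numbers were 386 and 88. For 260 of the lower genes, 55.9%, all 3 libraries of day 18 lay at least 2-fold below the lowest library of day 9. In the higher genes, all 3 libraries of day 18 exceeded the highest library of day 9 by at least 2-fold for 61 genes, 29.5%.

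The number of calls rested on single libraries. Without library 1, 2 or 3 of day 9, or without library 2 or 3 of day 18, edgeR called 0 genes, while between 2953 and 3783 genes had an unadjusted p under 0.05. Without library 1 of day 18 there were 374 calls, and without library 1 of day 12, which enters only through the shared estimate of the spread, the scaling and the filter, there were 2092. In these 7 fits, between 670 and 672 of the 672 genes kept the direction of their change. With all libraries, the days did not overlap for 202 of the 207 higher and 464 of the 465 lower genes. Leaving out 1 library could therefore hardly turn a direction. Without library 2 of day 0, either library of day 3, any library of day 6 or library 2 of day 12 there were 371 to 443 calls. Of the 24 genes named below for the size of their change, 7 were still called without library 1 of day 18 and 0 in the 5 fits with 0 calls. The genes are therefore described by their values in each library.

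The 3 gilts of day 18 differed more among themselves than the 3 of day 9. The mean correlation of log2(CPM + 1) between libraries was 0.983 within day 9, 0.913 within day 18 and 0.900 between the days, where CPM are counts scaled to the effective library size after TMM. The SD was larger on day 18 for 75.1% of the genes tested. Library 1 of day 18 was most like a library of day 15 (r = 0.973), library 2 most like library 1 of day 12 (r = 0.979), and library 3 most like a library of day 0 (r = 0.979). Total counts were between 10713518 and 13442083 in the 6 libraries, so that 3 counts, taken as the lowest detectable level, corresponded to 0.229 to 0.319 CPM. The oocyte transcript GDF9 was found in all 6 libraries at 13.6 to 28.8 CPM, as was the gonadal regulator NR5A1, at 14.7 to 63.6 CPM.

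The genes named in each direction were the 12 with a symbol and the largest change, among called genes whose libraries did not overlap between the days. Of those that rose, ARG1, the arginase that turns arginine into ornithine and urea, had 0, 0.403 and 0 CPM on day 9 and 342, 4.89 and 8.33 CPM on day 18. Library 1 of day 18 was by far the highest. Day 9 held only 5 counts in all against 4517 on day 18, and the ratio of the pooled levels was 777, with an exact 95% interval from 333 to 2390 that covers counting error only. The adjusted p of ARG1 was 0.042 (edgeR).

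SPP1, osteopontin, a secreted phosphoprotein that binds integrins, was at 81.7, 27.0 and 26.2 CPM on day 9 and at 5013, 86.5 and 761 CPM on day 18. Its fitted log2 fold change was 5.44 ± 1.49 (SE, edgeR adjusted p = 0.0476, n = 3 and 3), but library 2 of day 18 hardly exceeded library 1 of day 9. TNC, tenascin-C, a matrix glycoprotein of tissue under remodelling, had 4.87, 4.19 and 3.51 CPM on day 9 and 947, 11.5 and 96.6 CPM on day 18. Its log2 fold change was 6.38 ± 1.52 (edgeR adjusted p = 0.0337). For both genes library 1 of day 18 held the top value.

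CTSL, cathepsin L, a cysteine protease of lysosomes, rose in every library of day 18 by a wide margin. Its levels were 35.5, 41.9 and 25.1 CPM on day 9 and 940, 546 and 302 CPM on day 18, a log2 fold change of 4.12 ± 1.08 (edgeR adjusted p = 0.0441). Its lowest library of day 18 was several-fold above its highest of day 9. PDK4, the kinase that holds back pyruvate dehydrogenase, had 38.3, 31.8 and 37.4 CPM on day 9 and 1248, 232 and 163 CPM on day 18 (log2 fold change 3.93).

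OLR1, a scavenger receptor for oxidised low-density lipoprotein, was at 2.42 to 3.41 CPM on day 9 and at 80.2, 6.90 and 144 CPM on day 18 (log2 fold change 4.66 ± 1.28, edgeR adjusted p = 0.0482). SCIMP, an adaptor protein of antigen-presenting cells, was at 0.435 to 0.852 CPM on day 9 and at 7.01, 1.24 and 12.1 CPM on day 18 (log2 fold change 3.39). In both genes library 2 was the lowest of day 18. The neurotrophin BDNF rose from 0.106 to 0.435 CPM on day 9 to 9.77, 2.02 and 5.20 CPM on day 18, a ratio of the pooled levels of 23.4 with an exact 95% interval from 11.7 to 55.0. CREB3L3, a membrane-bound transcription factor of lipid metabolism, had 6 counts in all on day 9 and 42.1, 0.775 and 2.75 CPM on day 18, a ratio of 83.3 with an interval from 38 to 228. Its rise lay almost wholly in library 1, as for ARG1.

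RAB11FIP4, an effector of recycling endosomes, had 8 counts in all on day 9 and 2.36, 1.24 and 3.21 CPM on day 18, a ratio of 9.46 with an interval from 4.6 to 22.6. SYCP2, a protein of the synaptonemal complex of meiosis, had at most 0.958 CPM on day 9 and 4.02, 3.26 and 7.64 CPM on day 18. The last of the 12 was FAM131B, at 0.242 to 1.13 CPM on day 9 and 20.2, 3.02 and 3.51 CPM on day 18. The rise was thus even across libraries in CTSL, SYCP2 and RAB11FIP4, and carried mostly by library 1 in ARG1, TNC, CREB3L3 and SPP1.

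**Figure D1:**
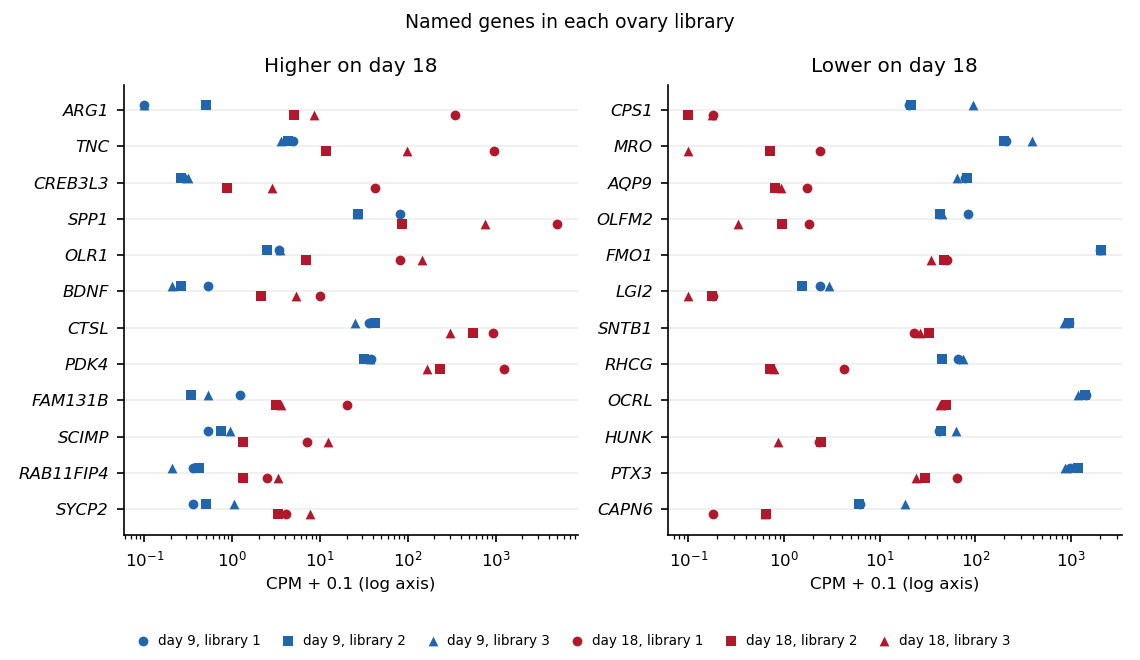
CPM + 0.1 on a log axis of the 12 genes with the largest rise (left) and the 12 with the largest fall (right) on day 18 in each of the 6 ovary libraries, day 9 in blue and day 18 in red, with 1 marker shape per library number. The libraries of day 18 are spread over more than 1 order of magnitude for genes such as TNC (11.5 to 947 CPM) and lie close together for lower genes such as OCRL (43.1 to 49.5 CPM).

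Among the genes with the largest fall, FMO1, a flavin-containing monooxygenase, was at 2011, 2048 and 2076 CPM on day 9 and at 50.2, 47.1 and 34.7 CPM on day 18, a log2 fold change of -5.54 ± 1.43 (edgeR adjusted p = 0.0421). OCRL, an inositol polyphosphate phosphatase, was at 1431, 1389 and 1191 CPM on day 9 and at 48.0, 49.5 and 43.1 CPM on day 18 (log2 fold change -4.83). SNTB1, a syntrophin of the dystrophin complex, went from 952, 960 and 840 CPM to 22.8, 32.4 and 26.5 CPM (log2 fold change -5.07). In these 3 genes the libraries of each day were close together, unlike in TNC or SPP1.

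PTX3, a pentraxin of innate immunity and of the cumulus matrix, had 985, 1173 and 864 CPM on day 9 and 63.5, 30.0 and 24.0 CPM on day 18 (log2 fold change -4.68). CPS1, which makes carbamoyl phosphate for the urea cycle, had 20.4, 21.1 and 93.4 CPM on day 9 and 2 counts in all on day 18. The ratio of its pooled levels, day 9 over day 18, was 798, with an exact 95% interval from 221 to 6600. ARG1 and CPS1, both enzymes of the urea cycle, thus changed in opposite directions. RHCG, a transporter of ammonia, fell from 65.3, 45.0 and 74.5 CPM to 4.17, 0.620 and 0.688 CPM (log2 fold change -5.07).

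AQP9, a channel for water and glycerol, was at 78.2, 82.4 and 64.7 CPM on day 9 and at 1.65, 0.698 and 0.840 CPM on day 18 (log2 fold change -6.13). MRO was at 209, 201 and 387 CPM on day 9 and at 2.28, 0.620 and 0 CPM on day 18 (log2 fold change -8.09). OLFM2, a secreted olfactomedin, was at 83.5, 42.3 and 44.2 CPM on day 9 and at 1.73, 0.853 and 0.229 CPM on day 18. These 3 genes were below 3 CPM in every library of day 18. The protein kinase HUNK fell from 41.2 to 62.4 CPM on day 9 to 0.764 to 2.33 CPM on day 18, the calpain-like CAPN6 from 5.97 to 18.4 CPM to 0.0788 to 0.543 CPM, and LGI2 from 71 counts over the 3 libraries of day 9 to 2 on day 18, a ratio of 41.3 with an exact 95% interval from 11 to 347.

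Cholesterol synthesis and uptake was the group of the lists fixed for this comparison with the most changed members. Of 21 members tested, 5 were lower on day 18 and 0 higher by edgeR, against 2.97% of all genes called lower. DESeq2 called 17 lower, against 1190 of all 15638 genes. The fitted change was negative in 21 of 21, with a median of -2.55 on the log2 scale against 0.12 over all genes, and in 18 of 21 every library of day 18 was below every library of day 9, against 18.2% of all genes tested. IDI1, NSDHL and SREBF2 were among the 5. Without library 1 of day 18 the number of lower members was 7, with a median of -4.01, without single libraries of days 0 to 6, 12 and 15 it was 1 to 15, with no filter 2, and in the 5 fits with 0 calls it was 0, as it was with a replicate block.

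IDI1, the isomerase of isopentenyl diphosphate, was at 12.1, 22.9 and 9.90 CPM on day 9 and at 1.34, 0.465 and 0.306 CPM on day 18, a log2 fold change of -4.40 ± 1.13 (edgeR adjusted p = 0.042). NSDHL, a sterol dehydrogenase of the later steps, was at 117, 141 and 133 CPM on day 9 and at 48.5, 27.1 and 20.5 CPM on day 18 (log2 fold change -2.03 ± 0.52, edgeR adjusted p = 0.0421). SREBF2, the transcription factor that drives these genes when sterols are low, was at 252, 263 and 392 CPM on day 9 and at 116, 97.2 and 54.7 CPM on day 18 (log2 fold change -1.76). For all 3 genes library 1 of day 18 kept the highest and library 3 the lowest level of that day.

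HMGCS1 and SCARB1 were highest in library 1 and lowest in library 3 of day 18 too, without passing the test. HMGCS1, a synthase of the first steps, was at 2031, 2421 and 2751 CPM on day 9 and at 713, 88.4 and 69.4 CPM on day 18, with an adjusted p of 0.114 (edgeR). SCARB1, the receptor through which luteal cells take up cholesterol from high-density lipoprotein, was at 5409, 5576 and 6841 CPM on day 9 and at 2363, 399 and 274 CPM on day 18 (edgeR adjusted p = 0.13). In INSIG1, the sterol-regulated retention protein, library 1 of day 18 overlapped with day 9, at 322 CPM against 277 to 333 CPM. The summed level of the list was 16330, 18300 and 20720 CPM on day 9 and 5818, 1295 and 825 CPM on day 18, so library 1 of day 18 stood between day 9 and the other two libraries.

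Genes of fatty acid synthesis, a list chosen after their values were seen and so described without a test, were lower as well. Of 11 members, 4 were called lower and 0 higher by edgeR, against 2.97% of all genes called lower, with a median log2 fold change of -1.80. SCAP, which escorts the SREBP factors out of the endoplasmic reticulum, was at 996, 1000.2 and 1607 CPM on day 9 and at 113, 180 and 113 CPM on day 18. ACACA, which makes malonyl-CoA, was at 119, 122 and 209 CPM and at 39.6, 51.4 and 43.5 CPM. The other two were the elongase ELOVL5 and the desaturase FADS2. In SCAP and ACACA, as in FMO1, the libraries of day 18 were close together.

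The respiratory chain, also listed after its members' values were seen, had small and even differences. Of 43 nuclear-encoded members, 13 were called lower and 0 higher (30.2%, against 2.97% of all genes called lower). The fitted change was negative in 41 of 43, and the median was -0.76 on the log2 scale. The members called belonged to complexes I to IV of the chain. UQCR10 of complex III was at 111, 117 and 111 CPM on day 9 and at 31.9, 44.4 and 31.1 CPM on day 18. SDHA, the flavoprotein of complex II, was at 244, 238 and 317 CPM and at 131, 120 and 84.2 CPM. COX5B of complex IV was at 192, 184 and 209 CPM and at 88.5, 101 and 68.7 CPM. The summed level of the 43 genes was 5714 to 5951 CPM on day 9 and 2898 to 3518 CPM on day 18. Without library 1 of day 18, 7 of the 43 were called.

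Other mitochondrial and translation genes were set beside the chain. Among 14 mitochondrial aminoacyl-tRNA synthetases, 4 were called lower by edgeR, against 2.97% of all genes, namely EARS2, IARS2, LARS2 and NARS2, with a median of -0.55. Of 41 mitochondrial ribosomal proteins 1 was lower by edgeR and 7 by DESeq2, with a median of -0.47. At an unadjusted p under 0.05 (edgeR) 20 were lower, against 12.8% of all genes. Of 22 cytosolic ribosomal proteins edgeR called 0, with 1 at an unadjusted p under 0.05 and a median of 0.25, and DESeq2 called 1 lower. Among 164 zinc finger genes with a ZNF symbol, 3 were higher and 0 lower by edgeR, against 1.32% of all genes called higher, with a median of 0.37. DESeq2 called 14 of the 164 higher and 1 lower, against 1131 and 1190 of all 15638 genes. These lists too were chosen after the values had been seen.

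Of 10 genes of steroidogenesis proper edgeR called 0, with 4 at an unadjusted p under 0.05, against 27.1% of all genes. DESeq2 called 1 higher and 1 lower. CYP11A1, the side-chain cleavage enzyme that turns cholesterol into pregnenolone, was at 4282, 4268 and 5092 CPM on day 9 and at 2778, 345 and 250 CPM on day 18, with an adjusted p of 0.277 (edgeR). NR5A2, a nuclear receptor needed for ovulation and luteal function, was at 826 to 869 CPM on day 9 and at 25.7, 434 and 45.3 CPM on day 18 (edgeR adjusted p = 0.181). In both, the libraries of the days did not overlap, but 1 library of day 18 stayed far above the other two, library 1 for CYP11A1 and library 2 for NR5A2.

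CYP17A1, the theca enzyme that makes androgen precursors, was at 38.2, 51.5 and 111 CPM on day 9 and at 20.7, 1269.6 and 181 CPM on day 18. SRD5A1, a steroid reductase, was at 38.3 to 42.1 CPM on day 9 and at 393, 20.3 and 27.1 CPM on day 18. CYP7A1, known as the rate-limiting enzyme of bile acid synthesis in liver, was at 0.0807 to 0.261 CPM on day 9 and at 14.2, 0.465 and 33.8 CPM on day 18 (edgeR adjusted p = 0.08). Each of these genes was thus high in a different library or pair of libraries of day 18. Several genes of this pathway, STAR and CYP19A1 among them, had no identifier paired with their symbol here and were not analysed.

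Markers of growing follicles were high in library 2 of day 18 in particular. INHA, the inhibin subunit made by granulosa cells, was at 266, 391 and 202 CPM on day 9 and at 32.0, 3570 and 205 CPM on day 18. SERPINE2, a protease inhibitor of granulosa cells, was at 352 to 620 CPM on day 9 and at 650, 6231 and 856 CPM on day 18. INSL3, a peptide hormone of theca cells, was at 3.66, 15.7 and 8.62 CPM on day 9 and at 13.3, 481 and 202 CPM on day 18. All 3 were highest in library 2, and INHA of library 1 lay below every library of day 9.

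By edgeR, 0 of 8 granulosa markers and 0 of 6 theca markers were called, with medians of 1.98 and 1.42 on the log2 scale. At an unadjusted p under 0.05 (edgeR), 2 granulosa markers were higher and 1 lower, and 1 theca marker was higher, against 27.1% of all genes. The fitted change was negative in 2 of 8 granulosa markers, the lowest being NR5A2 (-2.33), described above and also in this list. DESeq2 called 2 granulosa markers higher and 0 theca markers. The granulosa member nearest to the threshold was GJA1, the gap junction protein connexin, at 287 to 528 CPM on day 9 and at 920, 2594 and 1162 CPM on day 18 (edgeR adjusted p = 0.0572). The summed granulosa markers were 1953 to 2809 CPM on day 9 and 1795, 13290 and 2409 CPM on day 18, and the summed theca markers 548 to 684 CPM and 1314, 4392 and 1473 CPM. Such sums are set mostly by abundant members. By mean log2(CPM + 1) minus the mean of day 9, the theca markers were at -0.205, 2.975 and 1.225 in libraries 1, 2 and 3 of day 18. Of 12 cell cycle genes, 11 were highest of day 18 in library 2, for example CDK1, at 5.64 to 23.8 CPM on day 9 and at 3.31, 40.2 and 6.34 CPM on day 18. The cell cycle list had 0 calls by edgeR and by DESeq2, 0 members at an unadjusted p under 0.05, and a median of -0.06.

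Receptors for gonadotropins and ovarian hormones gave 1 higher call in 11 by edgeR and by DESeq2, against 1.32% of all genes by edgeR. PRLR, the receptor for prolactin, was at 0.174, 0.0807 and 0.106 CPM on day 9, below 3 counts in every library, and at 4.80, 8.14 and 0.535 CPM on day 18 (edgeR adjusted p = 0.0373). Day 9 held 4 counts in all, and the ratio of the pooled levels was 37.2, with an exact 95% interval from 14.3 to 138. Without library 1, 2 or 3 of day 18, or any library of day 9, it was not called. PGR, the progesterone receptor, was at 14.8, 15.6 and 7.35 CPM on day 9 and at 1.97, 4.19 and 2.9 CPM on day 18, without passing the test (edgeR adjusted p = 0.169). FSHR and LHCGR, the gonadotropin receptors, overlapped between the days and were highest in library 2 of day 18, at 65.6 and 179 CPM. Among 6 genes of luteolysis and prostaglandins edgeR called 0, with 3 at an unadjusted p under 0.05, against 27.1% of all genes. DESeq2 called 1 higher and 1 lower. PTGES, a prostaglandin E synthase, came nearest, at 957, 925 and 1617 CPM on day 9 and 36.8, 324 and 45.9 CPM on day 18 (edgeR adjusted p = 0.0682). The chemokine CCL2 was at 25.7 to 40.8 CPM on day 9 and at 901, 14.1 and 73.5 CPM on day 18, by far the highest in library 1.

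Of 8 inhibin, activin and BMP genes edgeR called 0, with 4 at an unadjusted p under 0.05, against 27.1% of all genes, and DESeq2 called 3 higher. BMP6 and BMP4, ligands of the BMP family, did not overlap between the days. BMP6 was at 219, 197 and 246 CPM on day 9 and at 482, 526 and 339 CPM on day 18, with an adjusted p of 0.0807 (edgeR). Of 20 extracellular matrix genes, TNC was the only one called by edgeR in either direction, while DESeq2 called 2 higher and 3 lower. MMP14, a membrane-bound matrix metalloproteinase, was at 247, 147 and 284 CPM on day 9 and at 922, 405 and 1302 CPM on day 18 (edgeR adjusted p = 0.0807). TIMP1, an inhibitor of metalloproteinases, was at 17044 to 19633 CPM on day 9 and at 13303, 527 and 958 CPM on day 18 (edgeR adjusted p = 0.322). Library 1 of day 18 thus kept more TIMP1 than the other two libraries of its day, as it did for CYP11A1.

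**Figure D2:**
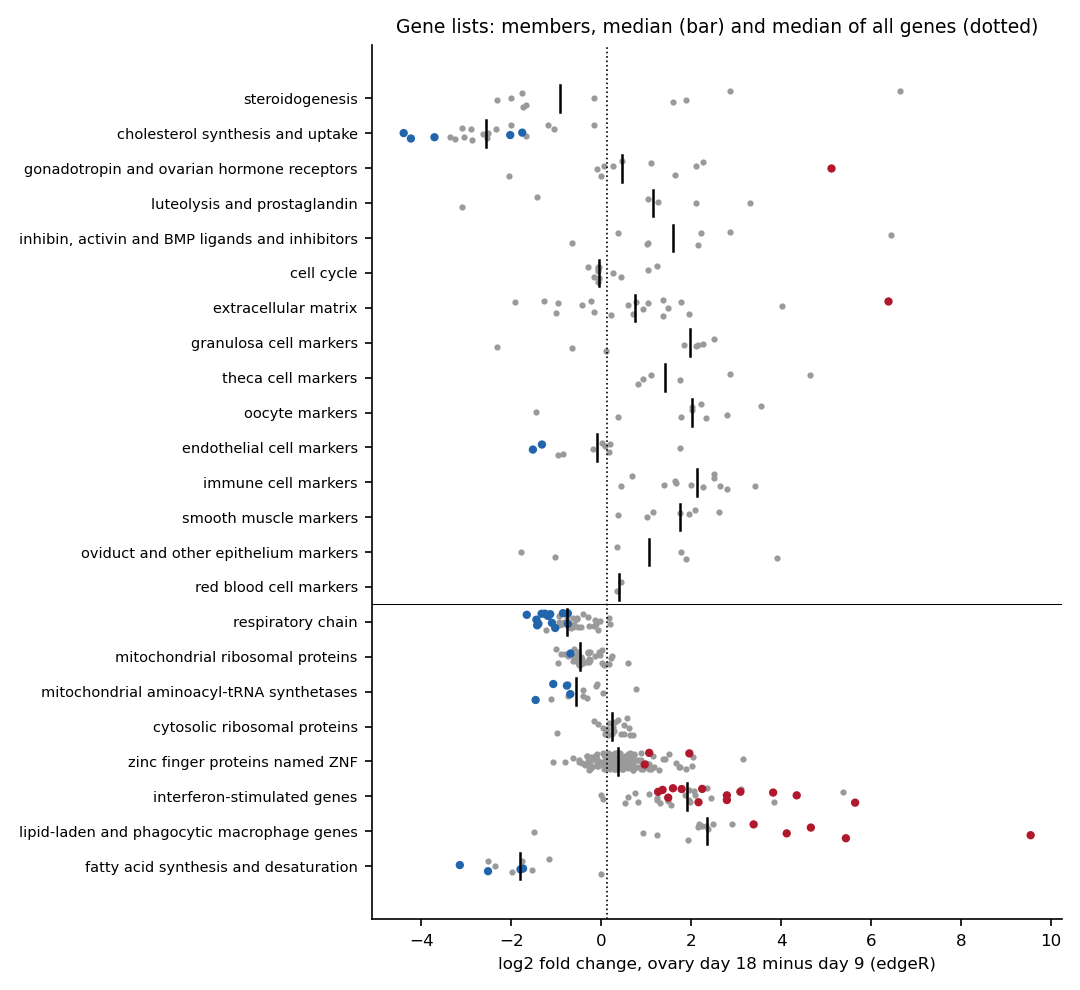
Log2 fold change (day 18 minus day 9, edgeR) of each member of 23 gene lists. Red and blue points were called higher and lower, grey points were not called, bars are medians and the dotted line is the median of all genes tested (0.12). Lists below the horizontal line were chosen after their values were seen. Cholesterol synthesis lies to the left in 21 of 21 members, and called members on the right belong mainly to the interferon-stimulated and macrophage lists.

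Immune cell markers as a list were higher in libraries 1 and 3 of day 18 but not in library 2. Of 12 members, 12 had a positive fitted change, with a median of 2.12, yet 0 were called by edgeR and 7 by DESeq2. An unadjusted p under 0.05 (edgeR) was found for 8, against 27.1% of all genes. The summed level was 89.1 to 126 CPM on day 9 and 447, 83.0 and 662 CPM on day 18. PTPRC, the common leukocyte antigen, was at 22.4, 13.1 and 11.2 CPM on day 9 and at 79.2, 15.7 and 128 CPM on day 18. CSF1R, the receptor that macrophages need to survive, was at 3.05, 2.66 and 3.94 CPM and at 25.1, 7.29 and 70.6 CPM (edgeR adjusted p = 0.0644). Library 2 of day 18 was above every library of day 9 for CSF1R, by less than libraries 1 and 3.

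A list of macrophage genes of lipid uptake and phagocytosis, chosen after values were seen, had 5 members called higher by edgeR in 16, against 1.32% of all genes, which were ARG1, SPP1, OLR1, CTSL and SCIMP described above. The lipid carrier APOE was at 383 to 659 CPM on day 9 and at 957, 498 and 6002 CPM on day 18. The galectin LGALS3 was at 68.4 to 86.7 CPM on day 9 and at 535, 39.1 and 598 CPM on day 18, and neither was called. The summed macrophage list was 1785 to 2481 CPM on day 9 and 12250, 2459 and 14850 CPM on day 18. It moved with the immune markers across libraries, while CTSL was at 546 CPM in library 2. The part of immune cells in the rise of the 5 genes was not tested. Without library 1, 2 or 3 of day 18, or with a replicate block, 0 of the 16 members were called, and with no filter 1. In a fit of only days 9 and 18, 2 were called.

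Interferon-stimulated genes, antiviral and signalling genes that respond to interferons, were high in library 1 of day 18. The list was chosen after values were seen, and 13 of 36 members were called higher and 0 lower by edgeR, against 1.32% of all genes called higher, with a median of 1.91. With no filter 3 were called, and in a fit of only days 9 and 18, 1 of the 34 members tested. RSAD2, an antiviral radical enzyme, was at 2.87, 0.484 and 1.17 CPM on day 9 and at 222, 2.09 and 3.90 CPM on day 18. IFIT1, which binds viral RNA, was at 7.49, 3.95 and 5 CPM and at 297, 7.44 and 31.0 CPM. In both genes library 2 of day 18 overlapped with day 9. The summed list was 562 to 672 CPM on day 9 and 4854, 633 and 1008 CPM on day 18. Without library 1 of day 18, edgeR called 0 members and the median was 0.48. GBP2, a guanylate-binding protein, and IFI44L were the more even members, GBP2 at 9.48 to 10.7 CPM on day 9 and 32.9, 20.01 and 23.5 CPM on day 18, and IFI44L at 22.3 to 38.9 CPM and 136, 53.9 and 83.5 CPM.

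Library 1 also differed in an epithelial transcript. EPCAM, an adhesion molecule of epithelia, was at 14.6, 19.4 and 15.1 CPM on day 9 and at 730.2, 7.29 and 6.49 CPM on day 18, while OVGP1, the oviduct glycoprotein, was at 38.8 to 65.5 CPM on day 9 and at 12.8, 13.5 and 46.0 CPM on day 18. Of 6 such markers edgeR called 0, with 1 at an unadjusted p under 0.05, against 27.1% of all genes, and DESeq2 called 1 higher. Their summed level was 72.9 to 94.4 CPM on day 9 and 821, 31.6 and 72.6 CPM on day 18, nearly all from EPCAM and KRT8 in library 1. Its part in the results of that library was not tested.

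Among 10 endothelial markers 2 were lower and 0 higher by edgeR, against 2.97% of all genes called lower. KDR, the main receptor for vascular endothelial growth factor, was at 401, 311 and 480 CPM on day 9 and at 176, 107 and 133 CPM on day 18 (log2 fold change -1.52 ± 0.42, edgeR adjusted p = 0.0493). ESAM, an adhesion molecule of endothelial junctions, was at 24.3, 16.5 and 30.8 CPM and at 8.98, 10.6 and 9.01 CPM (log2 fold change -1.32). Without any 1 library of days 9 and 18, or with no filter, neither was called, and with DESeq2's size factors or a replicate block 1 of the list was. The pan-endothelial marker PECAM1 overlapped, at 236 to 317 CPM on day 9 and 203 to 389 CPM on day 18, and the median of the list was -0.09. Smooth muscle markers gave 0 calls in 7 by edgeR and by DESeq2, with 7 of 7 positive and a median of 1.75. An unadjusted p under 0.05 (edgeR) was found for 2, against 27.1% of all genes. TAGLN, a marker of the contractile state, was at 244 to 311 CPM on day 9 and 793 to 1454 CPM on day 18. Of 9 oocyte markers edgeR called 0 (median 2.02), with 2 at an unadjusted p under 0.05, against 27.1% of all genes, and DESeq2 called 1 lower. Of 2 red blood cell markers 0 had an unadjusted p under 0.05 and both tools called 0 (median 0.39).

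The genes called between days 9 and 18 were then followed through the ovary libraries of the other days. Those libraries took part in the choice only through the shared estimate of the spread, the scaling and the filter. For each library the mean log2(CPM + 1) of the called genes was placed on a scale on which the mean of day 9 is 0 and that of day 18 is 1. The lower genes were at 0.0154 ± 0.0881 (SD, n = 3) on day 6, 0.303 ± 0.434 (n = 4) on day 12, 0.811 ± 0.152 (n = 4) on day 15, 0.959 ± 0.0958 (n = 3) on day 0 and 0.368 ± 0.134 (n = 2) on day 3. The higher genes were at 0.0339, 0.213, 0.740, 0.745 and 0.205 on the same days. Both sets were thus near the level of day 9 on day 6 and nearer to day 18 on days 15 and 0.

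Library 1 of day 12 stood apart from the other 3 of its day, at 0.939 for the lower genes against at most 0.186, and at 0.592 for the higher genes against at most 0.133. Day 15 differed from day 12 by 0.527 for the higher genes (exact permutation test, two-sided, p = 0.0571, adjusted over 6 tests 0.275) and by 0.508 for the lower genes (exact permutation p = 0.143, adjusted 0.275). Day 15 minus day 0 was -0.0053 for the higher genes (exact permutation p = 0.971). Day 3 lay below day 0 in both sets, by 0.541 and 0.591. The smallest p that the exact test allows was 0.0286 for 4 libraries against 4, 0.0571 for 4 against 3 and 0.2 for 2 against 3, and at least 0.0857 after adjustment, so no outcome could have passed and the differences are given as values.

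**Figure D3:**
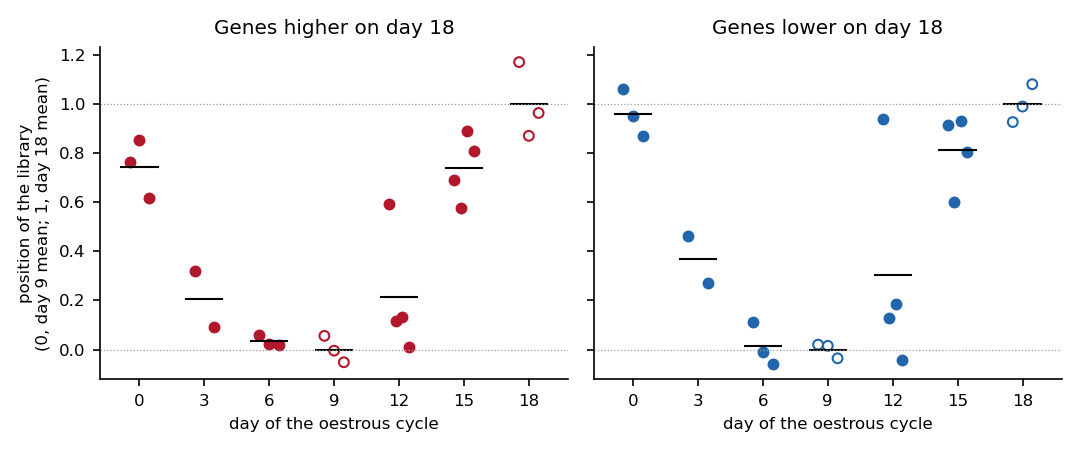
Position of each of the 22 ovary libraries on a scale from the mean of day 9 (0) to the mean of day 18 (1), by day of the oestrous cycle, for the 207 higher and the 465 lower genes. Points are libraries, bars are means and open points are the days compared. Library 1 of day 12 lies near day 18 for the lower genes (0.939).

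The single genes showed when in the cycle these levels were reached. FMO1 had a median of 1124 CPM on day 6, 1188 CPM on day 12, 101 CPM on day 15 and 14.8 CPM on day 0. OCRL had 1558 CPM on day 6, 129 CPM on day 12 and 62.3 CPM on day 15, so its median on day 12 was already far below that of day 9. NSDHL had 157 CPM on day 12, 47.2 CPM on day 15 and 32.1 CPM on day 0, and it was at 173 CPM on day 3. ARG1 was at a median of 144 CPM on day 15 and at 1.11 CPM on day 0, and TNC at 259 CPM and 44.0 CPM, so both were high on days 15 and 18 in some libraries. The spread within days 12 and 15 was wide, for NSDHL from 30.7 to 174 CPM on day 12.

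**Figure D4:**
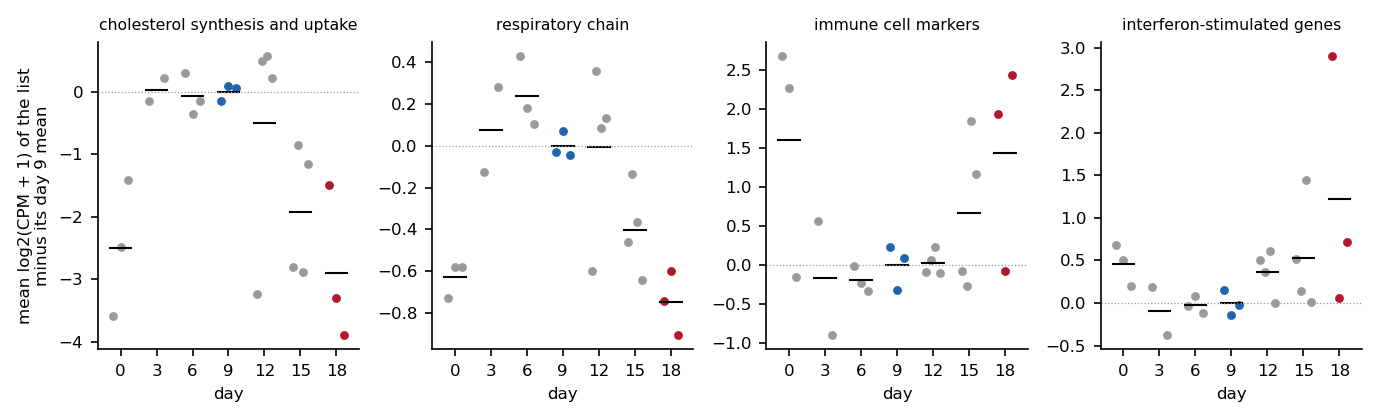
Mean log2(CPM + 1) of 4 gene lists in each ovary library, minus the mean of day 9, by day (day 9 blue, day 18 red, other days grey, bars are means of the day). The cholesterol list of library 1 of day 12 (-3.24) lies with day 18 (-1.49, -3.30 and -3.89). The immune list is high in 2 of 3 libraries of days 0 and 18 and in libraries 3 and 4 of day 15 (1.849 and 1.163). The interferon-stimulated list is highest in library 1 of day 18 (2.897).

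Comparisons with other days give the scale of the change. The same test called 0 genes between days 18 and 0 of the ovary, with 710 at an unadjusted p under 0.05 and 26 calls by DESeq2. Between days 15 and 9 it called 301 genes, 79 higher and 222 lower. These comparisons share libraries with the main one, so their gene sets were not compared.

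The same days gave more calls in the other tissues, 3854 genes in the endometrium and 2500 in the oviduct. At an unadjusted p under 0.05 (edgeR) the numbers were closer, 4234 in the ovary, 5817 in the endometrium and 5251 in the oviduct. The number of ovary calls also rested on single libraries, as given above. The change in the ovary differed from that in the endometrium for 2718 of 16934 genes (16.1%) and from that in the oviduct for 3039 (17.9%), by an interaction test in edgeR. Of the 464 lower genes of the ovary in this test, 276 fell more, or rose less, than in the endometrium and 326 than in the oviduct. For the 207 higher genes, 111 rose more, or fell less, than in the endometrium and 132 than in the oviduct. The genes were chosen by their change in the same ovary libraries, so high numbers on this side follow in part from the choice. In the endometrium 94 of the 437 lower ovary genes tested there were also lower (21.5%, against 12.4% of all genes), while 30 were higher (6.86%, against 12.7%). In the oviduct 55 of 446 were also lower (12.3%, against 5.82%) and as many were higher (12.3%, against 10.1%). Of the 200 higher ovary genes tested in the endometrium, 44 were higher there too (22.0%) and 22 lower (11%), and of 201 in the oviduct, 16 were higher (7.96%) and 8 lower (3.98%).

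By its median, the cholesterol list was lower on day 18 in the ovary (-2.55, with 5 of 21 members called lower by edgeR) and higher in the oviduct. In the oviduct 14 of the 21 members were higher on day 18, against 10.1% of all genes there, and 0 were lower, with a median of 1.18. The difference between the tissues was called for 18 of 21, against 17.9% of all genes. In the endometrium 3 were lower, near the share of 12.4% of all genes there, and 0 higher. The difference from the ovary was called for 3, also near the share of all genes (16.1%). NSDHL, for example, had a log2 fold change of -2.03 in the ovary, -0.19 in the endometrium and 1.2 in the oviduct. The respiratory chain list had 31 of 43 members higher in the oviduct, against 10.1% of all genes there, and 0 lower. The difference from the ovary was called for 38, against 17.9% of all genes. In the endometrium 13 were lower, as in the ovary, against 12.4% of all genes there. The difference was called for 6 members in the direction of a larger fall in the ovary and for 3 in the other. Over all genes it was called for 16.1%. Interferon-stimulated genes had 12 of 36 members lower in the endometrium, against 12.4% of all genes there, and 1 higher. The change was larger in the ovary for 30, in a list whose rise in the ovary came mainly from 1 library. This list and the respiratory chain were chosen after values were seen, so their differences between tissues follow in part from the choice.

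**Figure D5:**
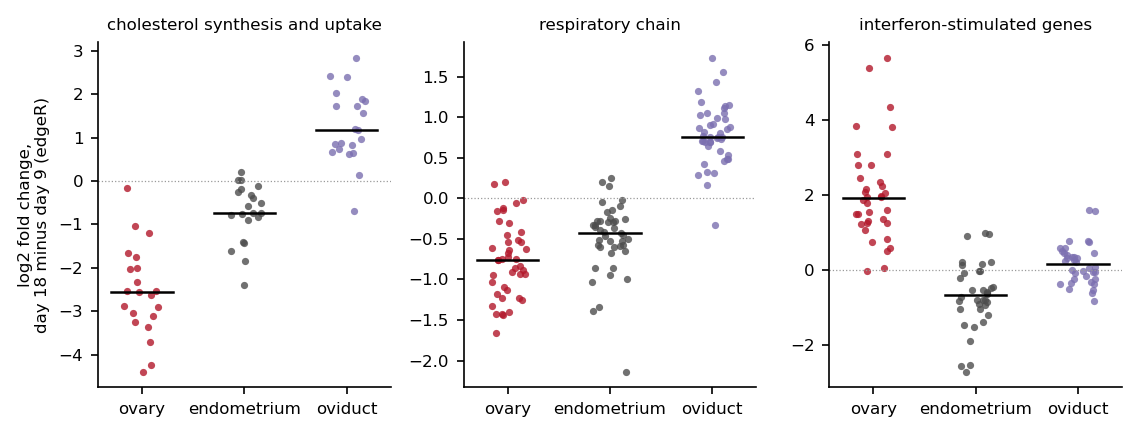
Log2 fold change (day 18 minus day 9, edgeR) of each member of 3 gene lists in ovary, endometrium and oviduct, fitted within each tissue. Bars are medians, for the cholesterol list -2.55, -0.74 and 1.18.

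The lower genes more often had a higher level in the ovary than in the other tissues. On the days other than 9 and 18, 7.11% of them had a mean log2(CPM + 1) at least 2 above both other tissues, against 2.2% of all genes tested and 0.966% of the higher genes. The share in each set is a description over genes that share libraries, and it was not tested. The lower genes were chosen for a higher ovary level on day 9 than on day 18 and were near that level on day 6. Their share thus follows in part from the choice.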

How the data were processed

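The authors cut off the start of every read, mapped paired-end reads to the Sus scrofa 10.2 genome with tophat2 and the Ensembl transcriptome, and deposited whole-number read counts per Ensembl gene and library, neither normalised nor pooled. The submitters' processing notes name FastQC, featureCounts, Cufflinks, Cuffdiff and edgeR. The strand setting of the counting is not given in the sources used here, so reads of overlapping or antisense genes cannot be told apart. The authors' own tests used FPKM and Cuffdiff, which were not used here. The labels list 67 samples, of which 66 have a column of counts, numbered within each tissue and day.

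The counts were fitted with edgeR 4.0.16 in R 4.3.3, in 1 model of the 22 ovary libraries with day as a factor, after filterByExpr and TMM, with robust glmQLFit and glmQLFTest, and genes with a Benjamini-Hochberg adjusted p under 0.05 were called. A standard error was taken as the size of the fitted log2 change over the root of its F value. Differences between tissues were tested as an interaction over all 66 libraries. The steps were tested on simulated counts. CPM values use TMM-scaled library sizes, so they compare libraries, not genes of different length. Intervals and floors cover counting error only, since reads carry no molecular identifiers. Symbols were paired with 10130 of the 15638 genes tested.

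Values of some members of the gene lists are not reported here. Named genes are members of the gene lists and, in each direction, the 12 that changed most among genes with a symbol, an adjusted p under 0.05, no overlap between the days and 10 or more counts wherever the level was higher. The comparison, its members and its lists were chosen with earlier results of these data known. Alternatives were DESeq2's size factors, no filter, DESeq2 1.42.0, a fit of days 9 and 18 only, the replicate number as a block, other thresholds and leaving out each library. Figures and permutation tests used Python 3.11.15, scipy 1.17.1 and matplotlib 3.10.9.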

Additional observations from a re-analysis of the deposited data

Results flagged for a closer look

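For the genes named in the report, the change from day 9 to day 18 was compared between the ovary and each other tissue by an interaction test (edgeR, Benjamini-Hochberg adjusted p under 0.05 in each case given here), and the values are differences of log2 fold changes, ovary minus the other tissue. These genes were chosen for a large change in the same ovary libraries, so a difference in that direction follows in part from the choice. Over all genes, the difference was called for 16.1% against the endometrium and for 17.9% against the oviduct. Among the genes that rose in the ovary, 8 differed from the endometrium, TNC by 7.43, OLR1 by 4.39, BDNF by 11.8, CTSL by 5.33, FAM131B by 6.25, SCIMP by 3.71, RAB11FIP4 by 4.32 and SYCP2 by 5.77. BDNF, FAM131B, RAB11FIP4 and SYCP2 were called lower in the endometrium over the same days, with log2 fold changes of -7.26, -2.39, -1.09 and -2.53, while CREB3L3, SPP1 and PDK4 were called higher there (3.4, 2.44 and 1.59). These were 4 and 3 of the 11 tested there, against 12.4% of all genes called lower and 12.7% higher. Differences from the oviduct were 6.37 for TNC, 6.58 for CREB3L3, 4.19 for OLR1, 5.12 for CTSL, 5.72 for PDK4, 3.8 for FAM131B, 3.64 for SCIMP and 3.33 for RAB11FIP4. PDK4 was called lower in the oviduct (-1.73) and SYCP2 higher (2.34), of 10 tested, against 5.82% and 10.1% of all genes.

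Among the genes that fell in the ovary, the difference from the endometrium was -9.32 for CPS1, -10.5 for OLFM2, -4.91 for FMO1, -4.32 for SNTB1, -4.05 for OCRL, -5.06 for HUNK, -5.12 for PTX3 and -4.21 for CAPN6. OLFM2 was called higher in the endometrium (4.61), and AQP9, RHCG and OCRL were called lower there, of 10 tested, against 12.4% of all genes. Differences from the oviduct were -4.01 for AQP9, -3.58 for SNTB1, -3.79 for OCRL, -4.37 for HUNK and -5.17 for CAPN6. SNTB1 and OCRL were called lower in the oviduct too, by less than in the ovary (-1.41 and -0.97). Of the 11 tested in the oviduct, 9 were called lower there, against 5.82% of all genes, the others being CPS1, MRO, AQP9, OLFM2, FMO1, RHCG and PTX3. RHCG differed from neither tissue in this test and was called lower in both, at -6.62 in the endometrium and -4.20 in the oviduct.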

How the results depend on the processing

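With 3 gilts per day and a wide spread on day 18, the number of calls depended on the libraries and the tool. The directions hardly did, but this follows largely from the choice, since the days did not overlap for nearly all called genes. The 672 calls (207 higher and 465 lower) became 370 (83 and 287) with no filter, 2321 (1131 and 1190) with DESeq2, of which 48.7% were higher against 30.8%, and 126 (38 and 88) with a log2 change of 3 or more in size. DESeq2, added after the data had been seen, called 26 genes between days 18 and 0 and 1500 between days 15 and 9. A fit of only days 9 and 18 in edgeR called 830 of 13915 genes (228 higher and 602 lower), of which 426 were among the 672. Leaving out 1 library gave 0 to 2092 calls, 0 to 873 higher and 0 to 1219 lower. The 0 calls came without library 1, 2 or 3 of day 9 or library 2 or 3 of day 18, and the cause was not tested. Without library 1 of day 18 there were 374, of which 268 were among the 672, and without library 1 of day 12 there were 2092. Members of the fixed lists called lower numbered 7, 2 with no filter, 2 with the replicate block, 25 with DESeq2, 0 to 7 without 1 library of days 9 and 18 and 1 to 20 without 1 library of another day, the highest without library 1 of day 12. Those called higher numbered 2, 18 with DESeq2, 0 in every fit without a library of days 9 or 18, and 2 to 7 without a library of another day. Genes whose change differed between ovary and endometrium numbered 1935 to 3213 without 1 ovary library of day 9 or 18, the only ones left out here. Between ovary and oviduct they numbered 2000 to 3500, and both were lowest without library 3 of day 18. Of the 24 named genes, edgeR called 24 with DESeq2's size factors, 18 with days 9 and 18 only, 12 with the replicate block, 11 with no filter, 7 without library 1 of day 18 and 0 without any other library of these days, and DESeq2 called 23. None of them turned direction in these fits, which was nearly certain from their choice among genes without overlap between the days.

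Same-numbered libraries of days 9 and 18 did not deviate together throughout (r = 0.132, 0.326 and 0.0836 after removing the day means), and library 3 of day 18 correlated better with library 1 of day 9 (0.125), so the numbers were not taken as a pairing. The replicate block gave 599 calls, 173 higher and 426 lower. On the scale between days 9 and 18, the difference of day 15 from day 0 for the higher genes turned from -0.0053 to 0.0134 (exact permutation test, adjusted p = 0.914) with only genes that changed by 1 or more on the log2 scale. Leaving out library 1 of day 18 gave higher genes at 0.77, 0.339, 0.0419, 0.336 and 0.64 on days 0, 3, 6, 12 and 15, and lower genes at 0.972, 0.34, -0.0145, 0.318 and 0.764. The differences were then -0.431, -0.13 and 0.305 (higher genes, day 3 minus day 0, day 15 minus day 0 and day 15 minus day 12) and -0.632, -0.208 and 0.446 (lower genes). No genes were left for the other 5 fits. The mean correlation between libraries was 0.975 within day 9 and 0.886 between the days with a pseudocount of 0.1, and 0.960, 0.575 within day 18 and 0.399 between the days over the 500 most variable genes.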

Other observations

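Matrix genes not described in the report did not move one way, and 0 of those given here were called. MMP9, a secreted gelatinase, was at 13.3, 3.23 and 0.319 CPM on day 9 and at 219, 8.30 and 47.9 CPM on day 18, overlapping in library 2. FN1, fibronectin, was at 1223, 782 and 1792 CPM on day 9 and at 4549, 299 and 8150.3 CPM on day 18, with library 2 below every library of day 9. The proteoglycan VCAN was lower in every library of day 18, at 502, 884 and 435 CPM against 1327 to 1552 CPM, as was the collagen COL3A1, at 5867 to 9090 CPM against 11396 to 20750 CPM.

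The stem cell factor receptor KIT was at 539, 510 and 412 CPM on day 9 and at 206, 246 and 80.6 CPM on day 18 (edgeR adjusted p = 0.101), while other oocyte markers such as ZP3 were at 0.696, 4.68 and 1.17 CPM and at 2.05, 12.9 and 12.1 CPM.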
